A study of Mus musculus with 7 samples.

Results

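Messenger RNA of 25 mouse genes of GABA signalling was compared between brains of transgenic mice of 24 months in 2 states, on and off. The genes were taken by symbol from a list of GABA enzymes, transporters, receptor subunits and inhibitory synapse scaffolds. All 25 were found among the 48526 Ensembl genes of the deposited table, and all 25 passed the filter on low values (a mean deposited value of 3 or more) that 17896 genes passed. The lowest of them, Gabrr1, passed only just, with a mean of 3.05.

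The 4 on libraries and the 3 off libraries both carry the label V1SSV2 and the word Venus, a yellow fluorescent protein. The series title concerns protein complementation of α-synuclein, a method in which fragments of a reporter joined to the protein give signal when copies of the protein meet. The on label goes with Glucose and the off label with Dox, so the treatment and the state of the constructs cannot be told apart. The promoter that drives the constructs, the sex of the mice and the part of the brain are not stated in the labels. Whether the 7 libraries come from 7 animals is not stated either, and p-values here measure the spread between libraries, which may be technical.

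GABA is the main inhibitory transmitter of the brain. It is made from glutamate by a pair of glutamate decarboxylases, packed into synaptic vesicles by one vesicular transporter, released, taken up by neurons and astrocytes, and broken down by GABA transaminase. It acts on GABA-A receptors, chloride channels built of subunits drawn from several families, and on GABA-B receptors, which act through G proteins. Whether the opened chloride channel inhibits a neuron depends on the cell's chloride level, which is set by the transporters of Slc12a5 and Slc12a2.

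Values are rlog (regularized log) values, a log2 scale in which a difference of 1 is a doubling, and in which changes of low genes are drawn towards 0. Depth per library is unknown. The general neuron markers Snap25, Syt1 and Rbfox3, the myelin gene Mbp and the astrocyte gene Aqp4 had values between 12.90 and 17.25 in every library. No gene that the table holds checks the state of the constructs. Longer transcripts stood higher in some libraries: over genes, which share these libraries and are no replicates, Spearman's rho between transcript length and each library's deviation was between 0.274 and 0.291 in on replicates 2, 3 and 4. On replicate 1 stood at -0.06, and the off libraries ranged from -0.316 to -0.233. Of 9 nuclear-retained and intron-rich RNAs, all had positive differences and 2 passed the test given below, which 2.6% of all tested genes passed. After the correction for transcript length and GC content 2 were negative and 1 passed, against 0.559% of all tested genes. Since the length trend moves with the groups, results below are also given after that correction where it moves them.

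The genes that mark a GABA neuron are those of the decarboxylases and the vesicular transporter. All 3 lie on chromosome 2, and the windows from 250 bases before to 50 bases after their RefSeq start sites (build GRCm38.p6, plus strand) are shown because Slc32a1 is the one member that passed the test and Gad1 and Gad2 serve the same cells. The windows are chr2:158610508-158610807 for Slc32a1, chr2:70561879-70562178 for Gad1 and chr2:22622077-22622376 for Gad2. Capitals mark matches to 6 motifs, searched on both strands. Of the elements near start sites, the GC box was searched as GGGCGG. The TATA box was searched with the letters TATAAA. The CCAAT box was searched under its own letters, CCAAT. Of the sites known to bind regulators, the cAMP response element was searched as TGACGTCA. For the E-box the letters were CAGCTG. For the homeodomain core they were TAATTA, and no motif overlapped another in these windows.
Slc32a1: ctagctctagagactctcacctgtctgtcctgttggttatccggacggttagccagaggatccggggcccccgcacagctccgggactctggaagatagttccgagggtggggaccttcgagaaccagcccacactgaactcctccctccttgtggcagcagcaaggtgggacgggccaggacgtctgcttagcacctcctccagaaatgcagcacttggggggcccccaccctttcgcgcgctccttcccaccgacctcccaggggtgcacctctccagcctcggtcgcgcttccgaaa
Gad1: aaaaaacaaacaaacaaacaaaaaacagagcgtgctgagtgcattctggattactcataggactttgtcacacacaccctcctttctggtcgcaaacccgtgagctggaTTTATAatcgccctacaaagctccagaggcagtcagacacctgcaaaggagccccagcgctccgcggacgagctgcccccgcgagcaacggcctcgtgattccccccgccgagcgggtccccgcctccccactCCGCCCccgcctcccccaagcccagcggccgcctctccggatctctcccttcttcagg
Gad2: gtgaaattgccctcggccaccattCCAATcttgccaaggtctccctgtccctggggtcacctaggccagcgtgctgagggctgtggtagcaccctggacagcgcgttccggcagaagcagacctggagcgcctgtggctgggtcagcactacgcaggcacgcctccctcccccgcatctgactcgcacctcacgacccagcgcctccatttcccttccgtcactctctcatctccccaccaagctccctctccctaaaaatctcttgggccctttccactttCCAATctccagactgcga

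The window of Slc32a1 held none of the 6 motifs. That of Gad1 held 1 TATAAA and 1 GGGCGG, both read on the opposite strand, and that of Gad2 held 2 CCAAT. Of 32851 such windows of mouse genes, 13.6% held TATAAA, 35.7% GGGCGG, 37.4% CCAAT, 16.3% CAGCTG, 5.29% TAATTA and 1.79% TGACGTCA. GC content was 63.3% for Slc32a1, 60.0% for Gad1 and 61.3% for Gad2, against a median of 52.7% over all windows, with 17, 21 and 14 CpG dinucleotides. A match is only a match of letters, and the window of 300 bases leaves out more distant sequence.

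**Figure D1:**
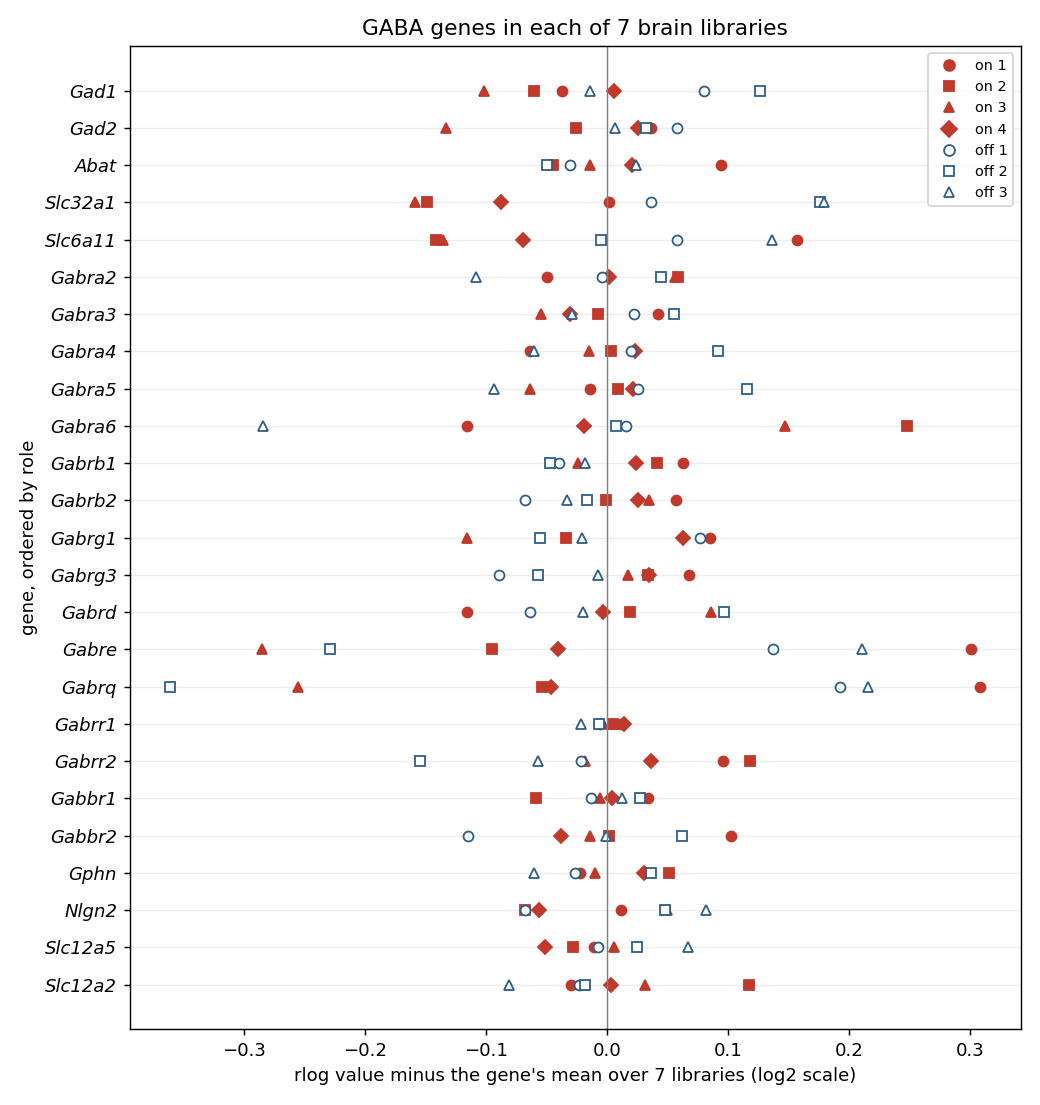
Each row is 1 of the 25 genes, ordered by role, and the horizontal axis gives the rlog value of each library minus the gene's mean over the 7 libraries (log2 scale). Filled red symbols are the 4 on libraries and open blue symbols the 3 off libraries. Slc32a1 has all on libraries below all off libraries, and Gabre and Gabrq have the widest spread.

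The comparison asks which GABA genes differ between on and off brains. One of the 25 genes, Slc32a1, passed the threshold of 0.05 after limma and Benjamini-Hochberg adjustment over all tested genes, and it was lower in on. Of all 17896 tested genes 2.6% passed, 1.79% lower and 0.816% higher in on, so 1 of 25 (4%) is near the share of all genes. The median difference over the 25 was -0.01, with 14 negative and 11 positive, against 0.003 over all tested genes. The groups were fully apart, with no overlap, in 5 of the 25 (20%), 1 with on below off and 4 with on above off, against 15.2% of all tested genes, 8.09% with on below off and 7.13% with on above off. At an unadjusted p under 0.05 stood 4 of the 25, against 20.7% of all tested genes.

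Slc32a1 encodes the vesicular GABA transporter, which loads GABA and glycine into synaptic vesicles. Its gene (ENSMUSG00000037771, protein coding) spans chr2:158610767-158615748 on the plus strand of GRCm38. Its values were 11.97, 11.82, 11.81 and 11.88 in on replicates 1 to 4 and 12.003, 12.14 and 12.15 in off replicates 1 to 3. Every on library lay below every off library, with on replicate 1 and off replicate 1 next to each other across the gap. The mean fell by 0.23 ± 0.05 on the log2 scale (SE), from 12.10 ± 0.08 (SD, n = 3) in off to 11.87 ± 0.07 (SD, n = 4) in on, with an adjusted p of 0.028 in limma. With 1 library left out, the difference stayed between -0.28 (without off replicate 1) and -0.20 (without off replicate 3). The call was lost when on replicate 2 (adjusted p = 0.070 in limma), 3 (0.115) or 4 (0.087) was left out. It was also lost without off replicate 2 (0.162) or 3 (0.117). In these fits only 0.24% to 0.978% of all tested genes passed, against 2.6% with all 7 libraries. The call was kept without on replicate 1 (0.0011) or off replicate 1 (0.021), where 16.3% and 1.74% of all tested genes passed. The transcript of Slc32a1 is rich in GC, with 61.9% against a median of 49.5% over all tested genes. In length it is only a little below the median, with 2797 against 3158 bases. After the GC and length correction its difference was -0.11 ± 0.03 (SE), which did not pass (adjusted p = 0.125 in limma). It also did not pass without the intensity trend (adjusted p = 0.055) or with no filter (adjusted p = 0.192).

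An antisense gene, Gm14205, covers 697 of the 2797 exonic bases of Slc32a1 on the other strand. Its mean value was 1.03, against 11.97 for Slc32a1, and the labels do not say whether counting used the strand. Gad1 and Gad2 share no exonic base with another annotated gene.

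Gad1 encodes the decarboxylase GAD67, found through the whole cell, and Gad2 encodes GAD65, which is concentrated at nerve endings. Gad1 read 14.31, 14.28, 14.24 and 14.35 in on replicates 1 to 4 and 14.42, 14.47 and 14.33 in off replicates 1 to 3. Only on replicate 4 and off replicate 3 crossed between the groups. The difference of Gad1 was -0.11 ± 0.04 (SE, adjusted p = 0.168 in limma). It was of the same size after the GC and length correction, -0.11 ± 0.03 (SE, adjusted p = 0.142). Gad2 read 13.46, 13.40, 13.29 and 13.45 in on and 13.49, 13.46 and 13.43 in off. The groups overlapped, with on replicate 3 the lowest of all, and the difference was -0.06 ± 0.04 (SE, adjusted p = 0.494), or -0.11 ± 0.04 (SE, adjusted p = 0.235) after the correction. With the correction and without on replicate 1, a setting added after the values were seen in which 9.97% of all tested genes passed, Gad1 (-0.12, adjusted p = 0.049 in limma), Gad2 (-0.14, adjusted p = 0.026) and Slc32a1 (-0.13, adjusted p = 0.016) passed lower.

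Whether Slc32a1 differed more than the decarboxylase genes was tested on its value minus theirs within each library, a test added after the values were seen. Slc32a1 minus Gad2 was -1.50, -1.58, -1.49 and -1.57 in on and -1.48, -1.32 and -1.29 in off, so the groups did not overlap. The shift of -0.17 gave an exact two-sided permutation p of 0.029, the smallest that 4 against 3 libraries allow, and 0.086 after Benjamini-Hochberg adjustment over the 3 pairs of genes tested this way. Slc32a1 minus Gad1 shifted by -0.12, with an exact permutation p of 0.114 (adjusted 0.114), and its groups overlapped through on replicate 1 and off replicate 1. A p at the smallest value this design allows passes the adjustment only when another pair reaches it too. The adjusted p of a single pair can therefore not decide the question here. After the GC and length correction both shifts were near 0, -0.003 against Gad2 (exact permutation p = 0.943) and 0.001 against Gad1 (exact permutation p = 0.971).

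**Figure D2:**
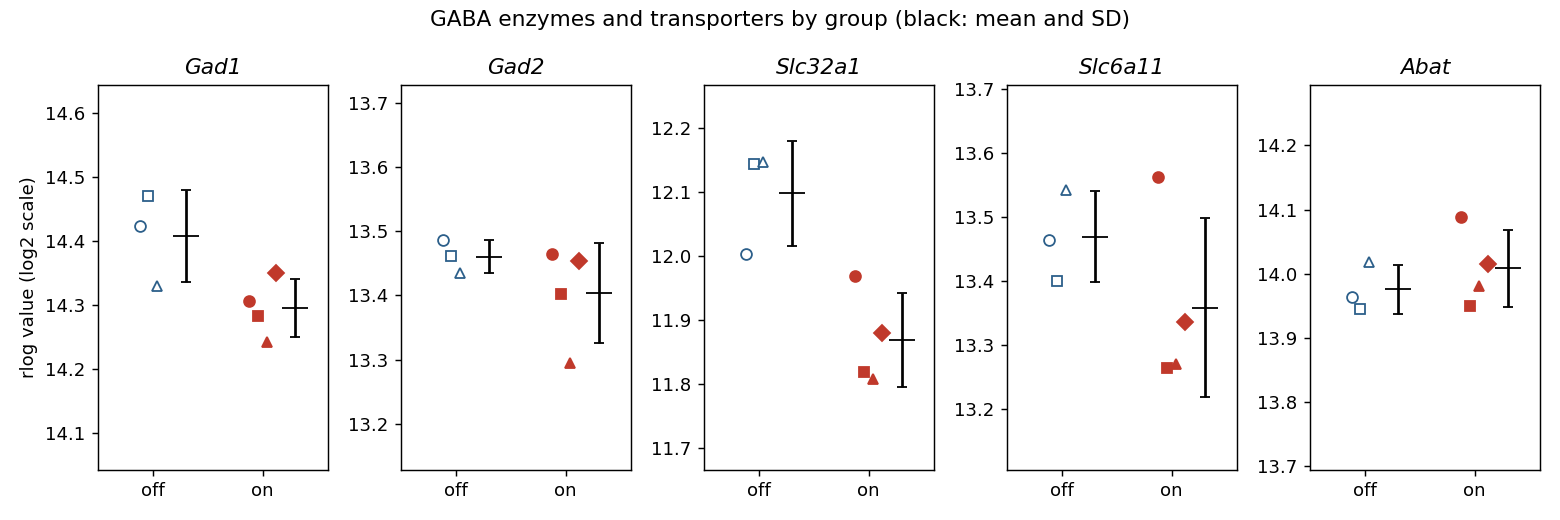
Each panel gives the rlog values (log2 scale) of 1 gene in off (open blue, n = 3) and on (filled red, n = 4), with the mean and SD in black. Circles, squares, triangles and diamonds are replicates 1, 2, 3 and 4, and every panel spans the same height. Off and on are apart for Slc32a1, and on replicate 1 is the highest library for Slc6a11 and Abat.

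Genes used as markers of GABA neuron types, whose specificity to these cells was not tested, were looked at beside Slc32a1. Of 16 markers of GABA neuron types, 1, the neuropeptide gene Sst, passed lower (-0.29 ± 0.06, SE, adjusted p = 0.031 in limma) and 15 did not pass. The median was -0.15, 13 of the 16 were negative, and 11 stood at an unadjusted p under 0.05 in limma, against 20.7% of all tested genes. Groups did not overlap in 7, 6 with on below off and 1, Reln, with on above off. Over all tested genes they did not overlap in 15.2%, 8.09% with on below off and 7.13% with on above off. The list was lowest in on replicates 2 and 3, as Slc32a1 was, but highest in off replicate 2 alone, while Slc32a1 was as high in off replicate 3. Its mean deviation was -0.002, -0.09, -0.11 and -0.02 in on replicates 1 to 4, and 0.05, 0.16 and 0.02 in off replicates 1 to 3. The interneuron genes differed among themselves: Pvalb differed by -0.06 ± 0.06 (SE, adjusted p = 0.603) and Vip by 0.01 ± 0.05 (SE, adjusted p = 0.920). With the correction the 16 had a median of -0.10 and none passed (0 of 16 in limma, with Sst at an unadjusted p of 0.011). Even a difference that held in these markers would not tell fewer GABA neurons from less RNA per GABA neuron in bulk tissue. Several lists of other cells also leaned negative, with smaller medians and no gene that passed. Negative were 6 of 8 glutamatergic neuron markers (median -0.04) and 6 of 7 general neuron markers (-0.06). So were 5 of 6 oligodendrocyte markers (-0.06) and 5 of 6 microglia markers (-0.07). At an unadjusted p under 0.05 in limma stood 3, 1, 0 and 2 of these lists, in this order. The astrocyte and granule cell lists are given below. Marker lists of 2 regions that hold many GABA neurons were looked at as well, which share Meis2 and Tac1 with the 16. All 8 olfactory bulb markers had negative differences with a median of -0.28, and 4 passed lower in limma (3 after the correction). Of all tested genes 1.79% passed lower, and 0.559% passed in either direction after the correction. Their mean deviation was -0.09, -0.22, -0.23 and -0.01 in on replicates 1 to 4 and 0.20, 0.14 and 0.20 in off replicates 1 to 3. All 9 markers of striatal projection neurons, which use GABA, were negative with a median of -0.14. Of these 9, 0 passed in limma and 5 stood at an unadjusted p under 0.05, against 20.7% of all tested genes. After the correction all 9 were still negative, with a median of -0.12, and 0 passed. The part of these cells and regions in the result for Slc32a1 was not tested.

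Slc6a11 encodes GAT-3, the GABA transporter of astrocytes. Its values were 13.56, 13.27, 13.27 and 13.34 in on and 13.46, 13.40 and 13.54 in off. The on libraries other than replicate 1 lay below every off library, while on replicate 1 was the highest of the 7. The difference was -0.11 ± 0.06 (SE, adjusted p = 0.341 in limma). Without on replicate 1 it was -0.18 ± 0.04 (SE, adjusted p = 0.0098), so that library decides the call, in a fit in which 16.3% of all tested genes passed. Of the 7 astrocyte markers, Slc6a11 among them, 4 were negative, 0 passed in limma and 0 stood at an unadjusted p under 0.05. Over all tested genes 2.6% passed and 20.7% stood at that p. Aqp4 differed by 0.03 ± 0.04 (SE) and Slc1a3 by 0.05 ± 0.04 (SE). The mean deviation of the 7 was 0.08, -0.02, -0.002 and -0.05 in on replicates 1 to 4 and -0.03, 0.01 and 0.02 in off replicates 1 to 3. It was highest in on replicate 1 as for Slc6a11, which is itself part of that mean. The part of astrocyte content in the values of Slc6a11 was not tested. Abat, the transaminase that breaks GABA down, differed by 0.03 ± 0.04 (SE, adjusted p = 0.697), with values from 13.95 to 14.09 in on and from 13.94 to 14.02 in off.

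The 14 genes of ionotropic receptor subunits, 12 of GABA-A and 2 of rho type, gave no call in either direction (0 of 14 in limma). At an unadjusted p under 0.05 stood 2, Gabrr2 and Gabrg3. Over all tested genes 2.6% passed and 20.7% stood at that p. The 14 were evenly divided, 7 negative and 7 positive, with differences from -0.07 to 0.15. Of the α subunits, which shape where and how a receptor responds, Gabra2 differed by 0.04 ± 0.05 (SE), Gabra3 by -0.03 ± 0.04, Gabra4 by -0.03 ± 0.04 and Gabra5 by -0.03 ± 0.05. Their adjusted p lay between 0.661 and 0.783. The groups overlapped in all 4 genes, and within each gene the 7 libraries spanned 0.11 to 0.21. The GC and length correction turned the sign of Gabra2 and Gabra5.

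Gabra6, whose product is found almost only in granule cells of the cerebellum, had the largest positive difference of the 25, at 0.15 ± 0.08 (SE, adjusted p = 0.314 in limma). Its values were 11.83, 12.19, 12.09 and 11.92 in on and 11.96, 11.95 and 11.66 in off. On replicates 2 and 3 were high, off replicate 3 was low, and the other 4 libraries lay between. After the correction the difference was 0.17 ± 0.07 (SE, adjusted p = 0.228). Without off replicate 3 it was 0.05 ± 0.08 (SE, adjusted p = 0.773), less than that of Gabrr2 and Gabrg3, and without on replicate 2 it was 0.09. All 8 granule cell markers, Gabra6 among them, had positive differences with a median of 0.12. Against 2.6% and 20.7% of all tested genes, 0 of the 8 passed in limma and 2 stood at an unadjusted p under 0.05. Their mean deviation was -0.11, 0.16, 0.12 and 0.04 in on replicates 1 to 4 and 0.01, -0.09 and -0.13 in off replicates 1 to 3. It was lowest in off replicate 3 and on replicate 1, and so was Gabra6. Gabra6 is part of this mean, so the match is partly of the gene with itself. The order of the libraries without Gabra6 was not determined. Of the markers, Cbln1 differed by 0.01 ± 0.05 (SE) and Cbln3 by 0.14 ± 0.05 (SE). The part of granule cell content in the value of Gabra6 was not tested.

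The β subunits form the GABA site together with α subunits. Gabrb2 read 12.53, 12.48, 12.51 and 12.50 in on and 12.41, 12.46 and 12.44 in off. The on libraries lay above the off libraries by a narrow margin, and the difference of 0.07 ± 0.03 (SE, adjusted p = 0.285 in limma) did not pass. Gabrb1 read 12.69, 12.67, 12.60 and 12.65 in on and 12.58, 12.58 and 12.61 in off. Only on replicate 3 and off replicate 3 crossed, and the difference was 0.06 ± 0.04 (SE, adjusted p = 0.353). Its annotated transcript is the longest of the 25 genes, 13737 bases, and after the GC and length correction its difference was -0.08 ± 0.04 (SE, adjusted p = 0.308), of the opposite sign. The start of Gabrb1 faces that of Gabra4 on the other strand, and the 2 genes share 46 exonic bases, 0.332% of those of Gabrb1 and 0.756% of those of Gabra4.

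Gabrg3, a γ subunit, read 10.04, 10.01, 9.99 and 10.01 in on and 9.89, 9.92 and 9.97 in off. All on libraries were above all off libraries, by 0.09 ± 0.04 (SE, adjusted p = 0.232 in limma). Its transcript is also long, 9767 bases, and the corrected difference was -0.02 ± 0.04 (SE, adjusted p = 0.812). Gabrg1, another γ subunit, differed by -0.001 ± 0.05 (SE, adjusted p = 0.993), a sign that turned positive with median centring or quantile normalization. Gabrd encodes the δ subunit of receptors outside synapses, which respond to low ambient GABA. It differed by -0.01 ± 0.05 (SE, adjusted p = 0.952), and by 0.05 ± 0.05 (SE, adjusted p = 0.642) after the correction.

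The ρ subunits form GABA channels best known from the retina, and both genes were low here. Gabrr2 read 5.73, 5.76, 5.62 and 5.67 in on and 5.62, 5.48 and 5.58 in off. The on libraries lay above the off libraries, though on replicate 3 and off replicate 1 were nearly equal. The difference was 0.14 ± 0.05 (SE, adjusted p = 0.154 in limma), and 0.14 ± 0.05 (SE, adjusted p = 0.175) after the correction. Gabrr1 also had on above off, with 3.06, 3.06, 3.05 and 3.07 against 3.05, 3.05 and 3.03. The difference of 0.02 ± 0.02 (SE, adjusted p = 0.667) did not pass, and the range over 7 libraries, 0.04, was the smallest of the 25, at a level where rlog values are held close to the gene's mean.

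The ε and θ subunits, encoded by Gabre and Gabrq, differed most between libraries of the same group. Gabrq read 8.86, 8.496, 8.29 and 8.503 in on and 8.74, 8.19 and 8.77 in off. Gabre read 6.58, 6.19, 5.996 and 6.24 in on and 6.42, 6.05 and 6.49 in off. In both genes on replicate 1, off replicate 3 and off replicate 1 were the 3 highest libraries, in that order, and on replicate 3 and off replicate 2 the 2 lowest. The differences between groups were -0.03 ± 0.13 (SE, adjusted p = 0.933 in limma) for Gabrq and -0.07 ± 0.12 (SE, adjusted p = 0.783) for Gabre. The ranges over 7 libraries were 0.67 and 0.59, and for the other 23 genes they lay between 0.04 and 0.53.

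The same 3 libraries were also the 3 highest for Slc6a11, though for none of the other 22 genes, and 4.86% of all tested genes had these 3 on top. They were the 3 lowest for 4 of the 25, Gabra2, Gabrd, Gphn and Slc12a2, and for 4.12% of all tested genes. Gabre and Gabrq are expressed in the hypothalamus, among other places, so 15 hypothalamic neuron genes were looked at, chosen after the values were seen and therefore not tested. In 12 of the 15 these were also the 3 highest libraries. For the peptide gene Oxt the values were 7.34, 7.48 and 7.63 in on replicate 1, off replicate 1 and off replicate 3, and 6.43 to 6.79 in the other 4. The mean deviation of the 14 that passed the filter was 0.20, -0.14, -0.22 and -0.09 in on replicates 1 to 4 and 0.16, -0.16 and 0.25 in off replicates 1 to 3. The part of the hypothalamus in each sample was not measured, and its part in Gabre, Gabrq and Slc6a11 was not tested.

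**Figure D3:**
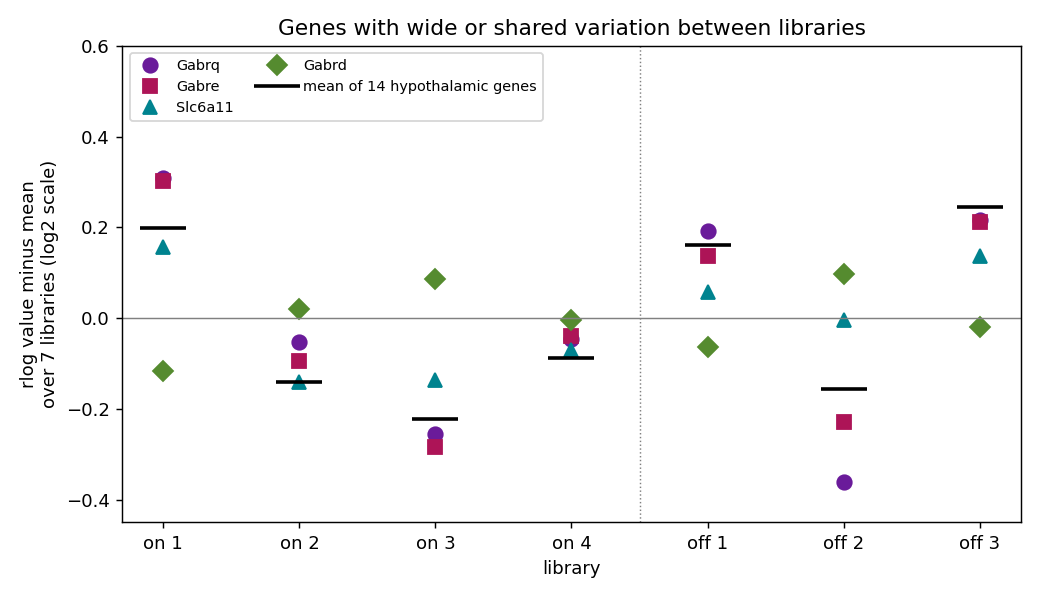
The vertical axis gives the rlog value minus the gene's mean over the 7 libraries (log2 scale) for Gabrq, Gabre, Slc6a11 and Gabrd, and black dashes give the mean over 14 hypothalamic genes; the dotted line parts on from off. Gabrq, Gabre and Slc6a11 are high in on replicate 1, off replicate 1 and off replicate 3, and Gabrd is at its lowest in on replicate 1.

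The genes of GABA-A subunits lie in clusters, and their differences are set side by side here without a test. On chromosome 5 Gabrg1, Gabra2, Gabra4 and Gabrb1 lie in this order between 70751047 and 72149037, with differences of -0.001, 0.04, -0.03 and 0.06. On the X chromosome Gabre, Gabra3 and Gabrq lie between 72255999 and 72842602. Gabra3, between the other two, spanned 0.11 over the 7 libraries, while its neighbours spanned 0.59 and 0.67. On chromosome 7 Gabrg3 and Gabra5 had differences of 0.09 and -0.03. On chromosome 11 Gabra6 and Gabrb2 had 0.15 and 0.07, and on chromosome 4 Gabrr2 and Gabrr1 had 0.14 and 0.02.

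The metabotropic receptor is a dimer in which the product of Gabbr1 binds GABA and that of Gabbr2 couples to the G protein. Gabbr1 varied little, from 14.66 to 14.75 over the 7 libraries, with a difference of -0.02 ± 0.04 (SE, adjusted p = 0.860 in limma). Gabbr2 differed by 0.03 ± 0.05 (SE, adjusted p = 0.754), with the lowest library, off replicate 1, at 13.25 and the highest, on replicate 1, at 13.47. Gphn encodes gephyrin, the scaffold that holds GABA-A and glycine receptors at the synapse, and Nlgn2 encodes the adhesion protein neuroligin 2 of inhibitory synapses. Gphn differed by 0.03 ± 0.04 (SE, adjusted p = 0.707) and Nlgn2 by -0.04 ± 0.04 (SE, adjusted p = 0.684), and groups overlapped in both. Nlgn2 was at 0.004 ± 0.03 (SE) after the correction.

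Slc12a5 encodes KCC2, which pumps chloride out of mature neurons, and Slc12a2 encodes NKCC1, which brings chloride into cells, glia among them. Slc12a5 read 14.43, 14.42, 14.45 and 14.39 in on and 14.44, 14.47 and 14.51 in off. On replicate 3 was the only on library above off replicate 1, and the difference was -0.05 ± 0.04 (SE, adjusted p = 0.489 in limma). Slc12a2 read 12.45, 12.60, 12.51 and 12.48 in on and 12.46, 12.46 and 12.40 in off. On replicates 2, 3 and 4 were above all off libraries and on replicate 1 was not, and the difference was 0.07 ± 0.04 (SE, adjusted p = 0.346). Slc12a5 minus Slc12a2 is a log2 ratio of 2 mRNAs over all cells of a sample and no measure of chloride transport. It was 1.98, 1.82, 1.94 and 1.91 in on and 1.98, 2.01 and 2.11 in off. The shift of -0.12 had an exact two-sided permutation p of 0.086 (0.114 adjusted over the 3 pairs), and on replicate 1 lay within the off libraries. With the correction this shift was smaller, -0.05, with an exact two-sided permutation p of 0.029 (0.086 adjusted over the 3 pairs), and the difference of Slc12a2 alone was 0.01 ± 0.03 (SE, adjusted p = 0.893 in limma).

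**Figure D4:**
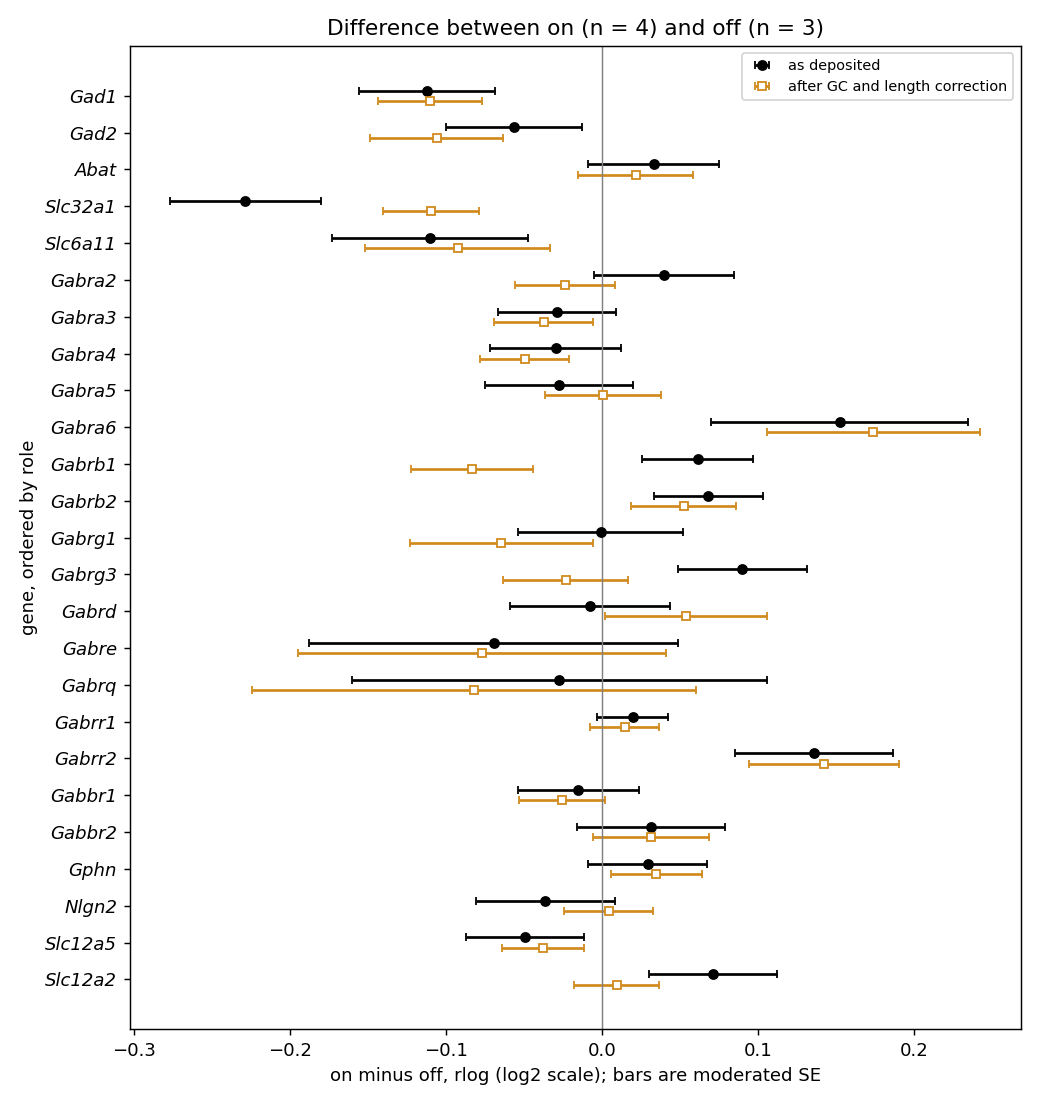
The horizontal axis gives the difference of on (n = 4) minus off (n = 3) in rlog value (log2 scale) for the 25 genes, with moderated SE as bars. Black circles are values as deposited and open squares those after the GC and length correction. The difference of Slc32a1 moves from -0.23 to -0.11, and those of Gabrb1 and Gabrg3, among others, change sign.

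Levels were compared between genes per kilobase, as the mean deposited value minus log2 of the length in kilobases of the gene's longest annotated transcript. On this scale Gad1 was highest at 12.49 ± 0.08 (SD over 7 libraries), followed by Gabbr1 at 12.33 ± 0.03, Slc12a5 at 11.85 ± 0.04, Abat at 11.78 ± 0.05 and Slc6a11 at 11.36 ± 0.12. Slc12a5 and Abat did not differ beyond the sum of their SDs. Among the GABA-A subunits of the 25 genes, Gabra6 (10.64 ± 0.17), Gabra3 (10.49 ± 0.04) and Gabrb2 (10.48 ± 0.04) were on top and could not be ordered beyond their spread. Slc32a1 lay among them at 10.48 ± 0.14. Gabra4 (10.00), Gabra5 (9.94) and Gphn (9.92) followed, also without an order beyond the spread. The lowest were Gabrg3 at 6.69, Gabrq at 6.24, Gabrr2 at 4.69, Gabre at 4.17 and Gabrr1 at 1.86, each apart from the next. Of the 24 pairs of neighbours in this order, 9 did not differ beyond the sum of their SDs. The level of a gene whose main transcript in brain is shorter than the longest annotated one is understated on this scale.

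**Figure D5:**
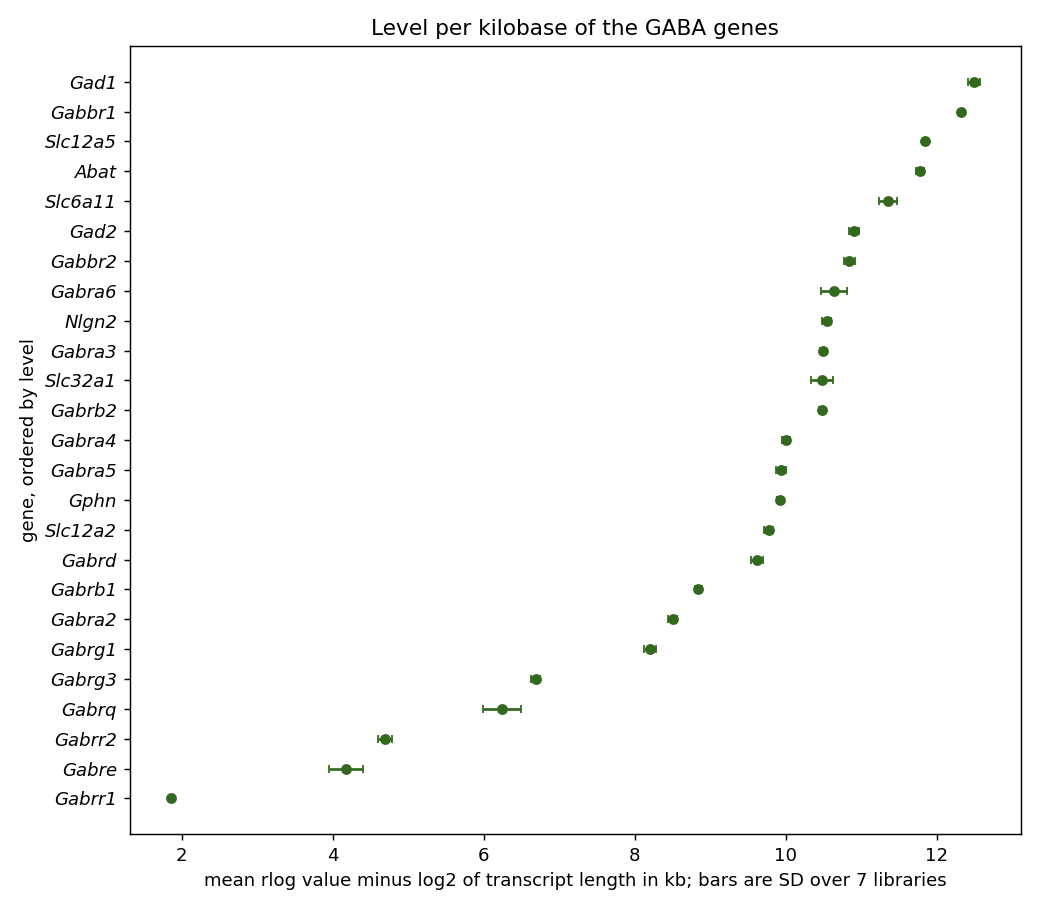
The horizontal axis gives the mean rlog value minus log2 of the transcript length in kilobases for the 25 genes, ordered by level, with the SD over 7 libraries as bars. Gad1 and Gabbr1 are above 12, most receptor subunits lie between 8 and 11, and Gabrr1 is the lowest.

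Of 48 other genes of the GABA pathway (further receptor subunits and transporters, glutamine and GABA metabolism, receptor trafficking, glycine receptors and chloride control), 47 were found and 45 passed the filter. Among these 45, 1 (2.22%) passed higher and 0 lower in limma, near the 2.6% of all tested genes. Of the differences 25 were negative and 20 positive, with a median of -0.01. At an unadjusted p under 0.05 in limma stood 7 of the 45, against 20.7% of all tested genes. The one that passed was Wnk1, a kinase that senses chloride and controls the transporters of the Slc12a family, with 0.20 ± 0.04 (SE, adjusted p = 0.026). It was 13.66 ± 0.04 (SD, n = 3) in off and 13.86 ± 0.06 (SD, n = 4) in on, with no overlap, and 0.10 ± 0.03 (SE, adjusted p = 0.149) after the GC and length correction. No gene of the 45 passed (0 in limma) when any one library other than on replicate 1 was left out. In those fits only 0.24% to 1.74% of all tested genes passed. Without on replicate 1, 7 of the 45 passed, in a fit in which 16.3% of all tested genes passed. Next came the glutamine transporter gene Slc38a1 at 0.12 ± 0.04 (SE, adjusted p = 0.084; 0.06 after the correction), the GABA-A receptor auxiliary gene Shisa7 at 0.13 ± 0.04 (SE, adjusted p = 0.106), and the transporter genes Slc6a12 at 0.16 ± 0.05 (SE, adjusted p = 0.117) and Slc6a13 at 0.22 ± 0.08 (SE, adjusted p = 0.136), none of which passed. Slc6a12 and Slc6a13 encode GABA transporters known mainly from brain coverings and vessels.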

How the data were processed

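The authors deposited 1 table of log2 values (rlog, by its name) with a column per library. Tools in the submitters' processing notes, with no role given, were STAR 2.5.2 and BWA 0.7.14-r1136, Subread 1.5.3, cutadapt 1.9.1 and DESeq2 1.16.1, with build GRCm38. The annotation release, the strand setting and the rlog options are not stated there. Per the labels' protocols, libraries were made with a stranded mRNA kit. No 2 libraries held identical values (0 identical pairs).

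GENCODE M21 (GRCm38) gave symbols, positions, transcript lengths and GC content and held 48144 of the 48526 genes. Promoter windows came from RefSeq (22 of 25 genes matched). limma 3.58.1 (R 4.3.3) was fitted over all genes with a mean of 3 or more, with a group term only, an intensity trend and two-sided tests. The correction removed a smooth trend with transcript length and GC content from each library, using smooths of mgcv 1.9.3 within 3 classes of genes by mean; 17831 genes (99.6%) had both properties. Scripts were tested on simulated data. In all 25 genes the gap between the highest or lowest on library and the next was set against the range of the 4 on libraries. The gap exceeded a share of 0.829, the Dixon limit for 4 values, in 0 genes. Smaller gaps, such as that of on replicate 1 for Slc6a11, are not marked by this rule. Genes and lists were chosen with earlier results of these data known. The naming rule took all 25 genes, with values of every library for those that passed or did not overlap between groups and for the 5 next smallest p, the pathway genes that passed or had the smallest p, and up to 3 markers per list in list order. Outside it, library values of Gad2, Gabre, Gabrq and Slc12a5, and the genes Oxt and Reln, were chosen after their values were seen. Alternatives are in the closing section.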

Additional observations from a re-analysis of the deposited data

How the results depend on the processing

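Over all tested genes 466 passed (146 higher, 320 lower), with 1 of the 25 GABA genes and 1 other pathway gene. These 3 counts became 7, 0 and 0 when no genes were filtered, 237, 0 and 0 when the intensity trend was left out, 30, 0 and 0 with the replicate block, 100, 0 and 0 with the GC and length correction, and 2, 0 and 0 with both. With array weights they were 2215 (1134 lower, 1081 higher), 1 and 5. With the GC and length correction and without on replicate 1, a setting chosen after seeing the data, they were 1784 (783 lower, 1001 higher), 6 and 5, and the median over the 25 was -0.038; the 6 were Gad1, Gad2, Slc32a1, Slc6a11 (-0.16, adjusted p = 0.022 in limma) and Gabrb1, lower, and Gabra6 (0.23, adjusted p = 0.024), higher. With 1 library left out they ran from 43 (without off replicate 2) to 2917 (without on replicate 1; 1436 lower, 1481 higher), 0 to 2 and 0 to 7, and the median from -0.017 to 0.022. The stricter filter, median centring and quantile normalization kept all 3 counts within 1.5 times. Same-numbered libraries did not deviate together (r = -0.23, -0.10 and 0.02), so the numbers were not taken as pairs; under the replicate block Slc32a1 was at -0.23 (adjusted p = 0.216 in limma).

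Genes that did not pass changed sign as follows. With median centring Gabrg1 was at 0.0054, with quantile normalization at 0.0033, and with array weights Gabrd was at 0.016. With the GC and length correction Gabra2 was at -0.024, Gabra5 at 0.00054, Gabrb1 at -0.084, Gabrg3 at -0.023, Gabrd at 0.053 and Nlgn2 at 0.0042; with the replicate block as well Gabra2 was at -0.013, Gabrb1 at -0.077, Gabrg3 at -0.016, Gabrd at 0.048 and Nlgn2 at 0.017. With the correction and without on replicate 1 Abat was at -0.0078, Gabra2 at -0.023, Gabra5 at 0.0049, Gabrb1 at -0.12 (adjusted p = 0.020 in limma), Gabrg3 at -0.048 and Gabrd at 0.11. With 1 library left out, the range reached across 0 for Gabra2 (-0.0031 to 0.073), Gabra4 (-0.069 to 0.0074), Gabra5 (-0.083 to 0.022), Gabrg1 (-0.030 to 0.037), Gabrd (-0.042 to 0.038), Gabre (-0.20 to 0.016), Gabrq (-0.22 to 0.073), Gabbr1 (-0.029 to 0.0021) and Gabbr2 (-0.017 to 0.071). The cause of these changes was not tested. Counts are not known, so depth sets no stated limit here, but differences of low genes such as Gabrr1 are shrunk.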
